A study of Mus musculus with 19 samples.

Results

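Dentate granule cells are the principal neurons of the dentate gyrus, the entry station of the hippocampus, and they are told from pyramidal cells by a small set of genes that they express strongly. The 9 genes described here are of that kind: Prox1, Bcl11b and Rfx3, which encode transcription factors, Dsp and C1ql2, whose products work at cell junctions and synapses, Dock10, Plk5 and Il16, which take part in signalling, and Lct, an enzyme gene. They were taken by gene symbol, each through the probe set that carries that symbol alone and has the highest mean over all arrays. The list was chosen with earlier results of these data known, so its counts beside all genes are descriptions and not tests. All 9 were measured, out of 19938 genes in all, and each had 1 probe set. The lead result concerns APP-PS1 mice on ibuprofen chow, in which 5 of the 9 genes were lower than in wild-type mice on the same chow, beside 0.251% of all genes. Of these, 1 (Dsp) stayed called without 3 arrays that stand apart, beside 0.166% of all genes called. When the arrays on that chow were fitted alone, 1 (Dsp again) stayed called, beside 0.0251% of all genes.

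The data are 19 Affymetrix arrays of hippocampal RNA from C57BL/6J mice 6 months old, with values on a log2 scale. APPSwe-PS1deltaE9 mice, called APP-PS1 here, carry transgenes with familial Alzheimer mutations, driven by the prion protein promoter, and form amyloid plaques. Their wild-type littermates served as controls. Chow held ibuprofen, an inhibitor of the cyclooxygenases, at 375 ppm or no additive and was eaten from 3 to 6 months of age. The groups were wild-type mice on control chow (4 arrays), wild-type mice on ibuprofen chow (5 arrays), APP-PS1 mice on control chow (5 arrays) and APP-PS1 mice on ibuprofen chow (5 arrays). The labels do not say that each array is a separate animal, so p-values measure the spread between these samples, which may be partly technical. The tissue is whole hippocampus, in which fewer granule cells and less RNA per granule cell cannot be told apart.

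App and Prnp, the checks of the genotype label, were higher in APP-PS1 mice by 0.40 and 0.67 on control chow and by 0.34 and 0.67 on ibuprofen chow, with no overlap between genotypes on either diet. Array medians over all probe sets lay between 8.06 and 8.14. In 3 arrays the median correlation with the others was under 0.99, namely replicates 1 and 5 of the wild-type group on ibuprofen chow and replicate 1 of the APP-PS1 group on control chow. Over the 19938 genes alone their medians were 8.75, 8.91 and 8.75, against 8.62 to 8.68 in the other arrays, so values of many genes run high there. For the comparisons of differences and for the correlations of gene pairs, values without these arrays stand beside those from all arrays.

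Granule cells send their axons, the mossy fibres, to mossy cells of the hilus and to CA3 pyramidal cells, and new granule cells are added through adult life. Prox1 is needed to set and keep granule cell fate, and without it these neurons take on features of CA3 pyramidal cells. Bcl11b is also expressed by CA1 and striatal neurons, Rfx3 by ciliated cells and Il16 by lymphocytes, so those genes are less specific to granule cells.

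Promoters are shown for 4 of the genes, Dsp and Prox1 because they had the 2 smallest p-values among the 9 genes on ibuprofen chow, Lct because its promoter is poor in G and C, and C1ql2 because its profile went apart from the others. Each is the 250 bases before the transcription start in RefSeq's table for GRCm38.p6, read in the direction of the gene. Dsp lies on the plus strand at chr13:38151044-38151293, Prox1, at the upstream one of its 2 listed starts, on the minus strand at chr1:190170828-190171077, Lct on the minus strand at chr1:128328319-128328568 and C1ql2 on the plus strand at chr1:120340332-120340581. Capitals mark matches, on either strand, to 6 motifs: the E-boxes CAGATG and CAGCTG, the cyclic AMP response element TGACGTCA, GTTGCC from the X-box that RFX factors read, the GC box GGGCGG and the TATA box TATAAA.
Dsp: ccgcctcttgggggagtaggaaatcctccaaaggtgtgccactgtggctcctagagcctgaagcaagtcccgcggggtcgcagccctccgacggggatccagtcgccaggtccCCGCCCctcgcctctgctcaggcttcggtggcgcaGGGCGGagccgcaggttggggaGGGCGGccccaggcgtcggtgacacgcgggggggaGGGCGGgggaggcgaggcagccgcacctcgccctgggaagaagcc
Prox1: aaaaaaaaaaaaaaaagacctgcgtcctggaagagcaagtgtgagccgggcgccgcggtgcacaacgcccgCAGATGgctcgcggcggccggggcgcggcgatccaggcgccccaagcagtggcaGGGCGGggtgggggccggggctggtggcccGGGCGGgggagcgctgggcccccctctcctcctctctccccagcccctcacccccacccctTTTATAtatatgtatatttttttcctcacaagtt
Lct: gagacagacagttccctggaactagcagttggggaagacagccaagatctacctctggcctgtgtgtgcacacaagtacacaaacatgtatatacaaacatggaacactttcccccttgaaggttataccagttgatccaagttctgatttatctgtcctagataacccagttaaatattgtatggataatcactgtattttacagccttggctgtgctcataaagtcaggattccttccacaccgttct
C1ql2: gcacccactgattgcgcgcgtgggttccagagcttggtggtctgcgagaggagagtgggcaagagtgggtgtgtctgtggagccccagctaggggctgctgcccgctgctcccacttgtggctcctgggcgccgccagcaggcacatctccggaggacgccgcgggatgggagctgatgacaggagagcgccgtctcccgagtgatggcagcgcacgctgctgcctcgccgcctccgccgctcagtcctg

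All 9 genes had a promoter in that table, with 13 starts between them. The Dsp window held 4 GC boxes and no other of these motifs. Prox1 held 2 GC boxes, a CAGATG box and, read on the opposite strand, TATAAA close to the start. Lct and C1ql2 held none of the 6, although the C1ql2 window is 68.8% G and C and the Lct window 42.8%, beside a median of 52.4% over all promoters. GC boxes were found for 5 of the 9 genes and in 32.7% of the 32851 promoters in the table. CAGATG was found for 3 (Prox1, Il16 and Dock10) and in 14.4% of promoters, CAGCTG for 1 (Dock10) and in 13% of promoters, and GTTGCC for 1 (Il16) and in 10.4% of promoters. TATAAA was found for 1 gene and in 12.4% of promoters, and TGACGTCA for 0 genes and in 1.55% of promoters. Genes with several starts had several windows to match, and the matches are letters in a window, not measured binding.

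The main question was how the genotypes compare on ibuprofen chow. Dsp, Prox1, Lct, Il16 and Rfx3 were lower in APP-PS1 than in wild-type hippocampus, which is 5 of 9 genes, beside 0.251% of all 19938 genes called lower. Dsp differed most, at 41% of the wild-type level. Dock10, Plk5 and Bcl11b lay below 0 without passing the test, and C1ql2 lay above 0, so that 8 of 9 lay below 0, beside 62.2% of all genes. The median difference of the 9 genes was -0.32, against -0.05 over all genes. As the genes were chosen with earlier results known, these shares describe the list and do not test it. Tests were limma's, with p-values adjusted over all genes.

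**Figure D1:**
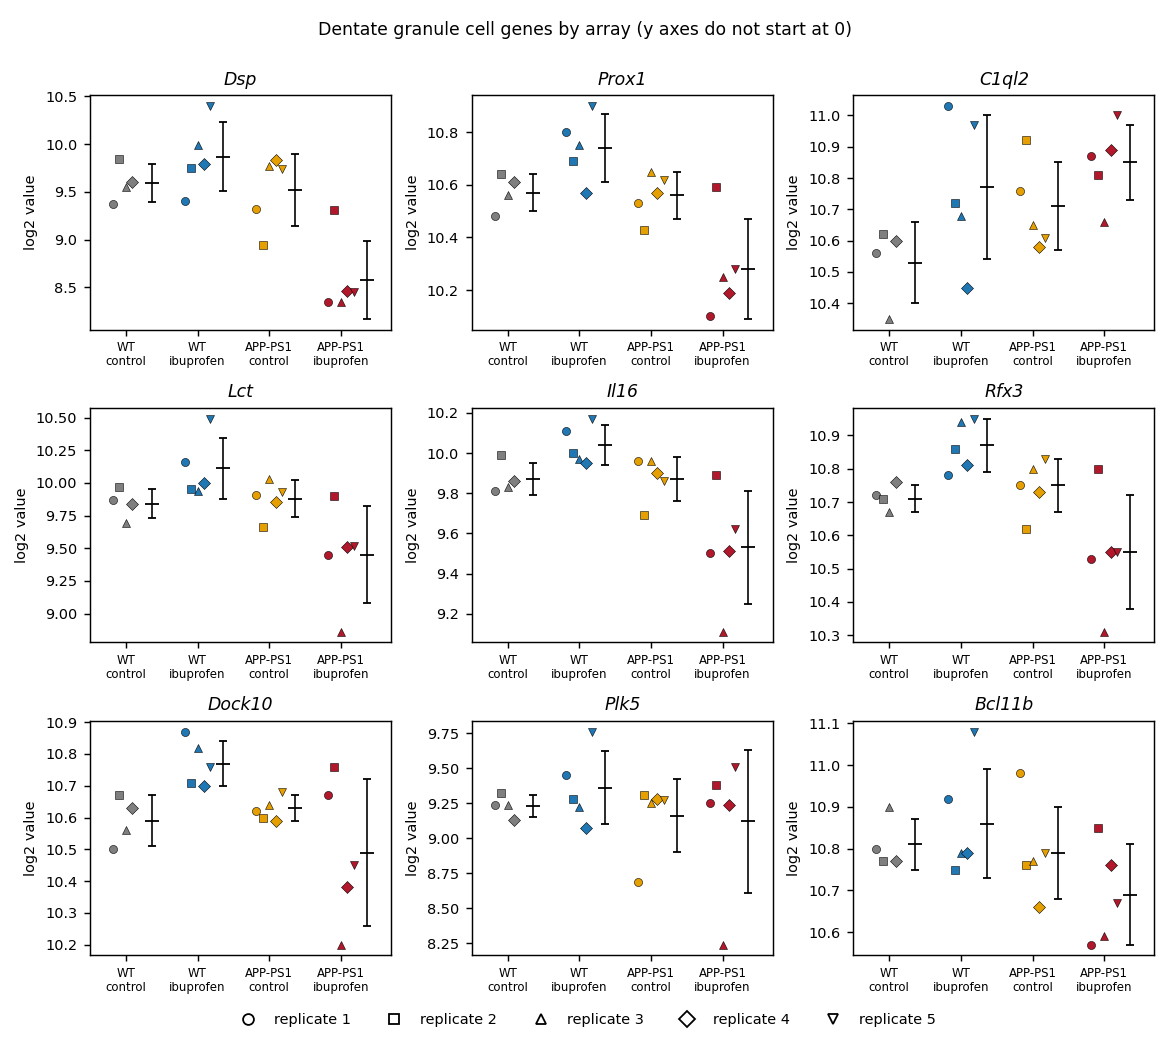
Log2 value (y axis, a separate scale in each panel) of the 9 granule cell genes in every array, by genotype and diet (x axis). Points are arrays, with the shape giving the replicate number, and the dash with bars beside them is the group mean with its SD. In APP-PS1 mice on ibuprofen chow, replicates 1, 3, 4 and 5 lie below every array of the other groups for Dsp, Prox1, Lct, Il16 and Rfx3, and replicate 2 lies among those arrays.

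Dsp encodes desmoplakin, which ties intermediate filaments to desmosomes, and is a marker of granule cells in the hippocampus. Its values were 9.37, 9.85, 9.55 and 9.60 in wild-type mice on control chow and 9.41, 9.75, 9.99, 9.79 and 10.40 on ibuprofen chow, in order of replicate number. In APP-PS1 mice they were 9.32, 8.94, 9.77, 9.83 and 9.74 on control chow and 8.35, 9.31, 8.35, 8.46 and 8.45 on ibuprofen chow. All 5 arrays of the last group lay below the lowest wild-type array on ibuprofen chow, and 4 of them lay together, more than 0.4 below any other array of the study. The group means were 9.87 ± 0.36 (SD, n = 5) for wild-type on ibuprofen chow, 9.59 ± 0.20 (SD, n = 4) for wild-type on control chow, 9.52 ± 0.38 (SD, n = 5) for APP-PS1 on control chow and 8.58 ± 0.41 (SD, n = 5) for APP-PS1 on ibuprofen chow. In that order the first 3 groups overlapped and did not differ beyond their spread. On ibuprofen chow the genotypes differed by -1.29 ± 0.19 (SE, adjusted p = 0.00545), a 2.44-fold difference, and the p-value ranked 4 among all genes. The SD of Dsp over the 19 arrays, 0.60, was wider than that of 99.8% of genes.

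Among the transcription factors, Prox1 stood at 10.80, 10.69, 10.75, 10.57 and 10.90 in wild-type mice on ibuprofen chow and at 10.10, 10.59, 10.25, 10.19 and 10.28 in APP-PS1 mice on it. On control chow the values were 10.48, 10.64, 10.56 and 10.61 in wild-type and 10.53, 10.43, 10.65, 10.57 and 10.62 in APP-PS1 mice. APP-PS1 replicate 2 on ibuprofen chow was level with the control-chow arrays and overlapped the lowest wild-type array, while the other 4 arrays were the lowest of the study. Prox1 was lower by 0.46 on the log2 scale on ibuprofen chow (-0.46 ± 0.08 SE, adjusted p = 0.0128).

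Rfx3 encodes a winged-helix factor best known for ciliary genes. Its values on ibuprofen chow were 10.78, 10.86, 10.94, 10.81 and 10.95 in wild-type and 10.53, 10.80, 10.31, 10.55 and 10.55 in APP-PS1 mice. On control chow they ran from 10.67 to 10.76 in wild-type and from 10.62 to 10.83 in APP-PS1 mice. Again APP-PS1 replicate 2 alone overlapped the wild-type arrays, and the difference was -0.32 ± 0.07 (SE, adjusted p = 0.0372). Bcl11b, also known as Ctip2, a zinc finger factor, did not pass. It stood at 10.92, 10.75, 10.79, 10.79 and 11.08 in wild-type and at 10.57, 10.85, 10.59, 10.76 and 10.67 in APP-PS1 mice on ibuprofen chow, and at 10.66 to 10.98 in all control-chow arrays. Its difference was -0.18 ± 0.07 (SE, adjusted p = 0.154), and 3 of the 5 APP-PS1 arrays stood under the lowest wild-type value.

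Lct encodes lactase, the enzyme that splits milk sugar in the gut and whose transcript marks granule cells in mouse brain. It stood at 10.16, 9.95, 9.94, 10.001 and 10.49 in wild-type and at 9.45, 9.90, 8.86, 9.51 and 9.52 in APP-PS1 mice on ibuprofen chow. On control chow it ran from 9.69 to 9.97 in wild-type and from 9.66 to 10.03 in APP-PS1 mice. The genotypes did not overlap on ibuprofen chow, although replicate 2 of APP-PS1 lay just under the lowest wild-type array, and replicate 3 was the lowest of all. The difference was -0.66 ± 0.13 (SE, adjusted p = 0.0315), or 1.58-fold.

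Il16 encodes a precursor with PDZ domains that is cut to give interleukin 16, a ligand of CD4, and that has a neuronal form. On ibuprofen chow its values were 10.11, 10.004, 9.97, 9.95 and 10.17 in wild-type and 9.50, 9.89, 9.11, 9.51 and 9.62 in APP-PS1 mice. On control chow the range was 9.81 to 9.99 in wild-type and 9.69 to 9.96 in APP-PS1 mice. The pattern was that of Lct, with no overlap between the genotypes on ibuprofen chow, replicate 3 lowest and replicate 2 highest among APP-PS1 arrays. Il16 differed by -0.51 ± 0.10 (SE, adjusted p = 0.0178). Lymphocytes also make Il16. None of the 4 measured T cell genes passed, and their median difference was 0.07. Their mean per array lay between 6.61 and 7.01, below the array medians over all genes, so a change in them could be missed. The cell source of the Il16 difference was not tested.

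Dock10 encodes an exchange factor that activates the small GTPases Cdc42 and Rac1. It stood at 10.87, 10.71, 10.82, 10.70 and 10.76 in wild-type and at 10.67, 10.76, 10.20, 10.38 and 10.45 in APP-PS1 mice on ibuprofen chow. Here 4 of the 5 APP-PS1 arrays stood under the lowest wild-type value, the farthest being replicates 3 to 5, but the difference of -0.28 ± 0.08 (SE) did not pass (adjusted p = 0.0946). Plk5, a brain-expressed member of the polo-like kinase family, gave 9.45, 9.28, 9.22, 9.07 and 9.76 in wild-type and 9.25, 9.38, 8.24, 9.24 and 9.51 in APP-PS1 mice. Replicate 3 stood far below the other arrays, which overlapped wild-type fully, and the difference was -0.23 ± 0.18 (SE, adjusted p = 0.385).

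C1ql2 encodes a secreted C1q-like protein of mossy fibre synapses, where it takes part in placing kainate receptors. Its values on ibuprofen chow were 11.03, 10.72, 10.68, 10.45 and 10.97 in wild-type and 10.87, 10.81, 10.66, 10.89 and 10.9997 in APP-PS1 mice. On control chow they were 10.56, 10.62, 10.35 and 10.60 in wild-type and 10.76, 10.92, 10.65, 10.58 and 10.61 in APP-PS1 mice. The genotypes overlapped on both diets, and none of the APP-PS1 arrays on ibuprofen chow lay below the arrays of other groups. The difference on ibuprofen chow was 0.08 ± 0.09 (SE, adjusted p = 0.584), with a 95% interval of -0.12 to 0.27. That interval excludes a lowering as large as the estimate for any of the 5 genes that passed. The order of the group means was APP-PS1 on ibuprofen chow (10.85), wild-type on ibuprofen chow (10.77), APP-PS1 on control chow (10.71) and wild-type on control chow (10.53), with every neighbouring pair overlapping.

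Counted by array, 3 of the 9 genes (Dsp, Lct and Il16) had no overlap between the genotypes on ibuprofen chow, all lower in APP-PS1, beside 2.06% of all genes. At an unadjusted p under 0.05, 7 of 9 were lower, beside 18.2% of all genes. Replicates 1, 3, 4 and 5 of the APP-PS1 ibuprofen group were below all 14 arrays of the other groups for Dsp, Prox1, Lct, Il16 and Rfx3. For Dock10 this held for 3 arrays, for Bcl11b for 2, for Plk5 for 1 and for C1ql2 for 0. These arrays were named after the values were seen, and the share of all genes with 4 such arrays in that group was not counted. Replicate 3 was the lowest array of the study for 5 genes and replicate 1 for 3. Replicate 2 of the same group never was, and on Rfx3, Dock10, Plk5 and Bcl11b it ranked in the upper part of the 19 arrays. At the other end, wild-type ibuprofen chow replicate 5, 1 of the arrays that stand apart, was the highest array for 7 of the 9 genes.

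Dsp was called lower in APP-PS1 on ibuprofen chow in each of the 19 fits that left out 1 array, with adjusted p of at most 0.0273. The call of Prox1 ended without APP-PS1 ibuprofen chow replicate 4 (adjusted p = 0.0532). That of Il16 ended without APP-PS1 replicate 1 or 4 or wild-type replicate 5 on ibuprofen chow (adjusted p up to 0.0655), and that of Lct without any of APP-PS1 replicates 1, 3, 4 and 5 and wild-type replicates 1 and 5 on that chow (adjusted p up to 0.0948). Rfx3 lost its call in 11 of the 19 fits (adjusted p = 0.0537 to 0.11): without any of the same APP-PS1 replicates, replicates 2, 3 and 5 of wild-type mice on ibuprofen chow, replicates 1, 2 and 4 of wild-type mice on control chow, or replicate 3 of APP-PS1 mice on control chow. Dock10 passed without replicate 2 of the APP-PS1 group (adjusted p = 0.0122) or replicate 4 of the wild-type group (adjusted p = 0.0416) on ibuprofen chow. In those 2 fits 444 genes (2.23%) and 1490 genes (7.47%) of the array were called. By count, 1 gene stayed called without replicate 4 of the APP-PS1 group, among 10 genes of the array (0.0502%). There were 2 without APP-PS1 replicate 1, among 33 genes (0.166%), and 2 without wild-type replicate 5, among 34 (0.171%). There were 3 without APP-PS1 replicate 3, among 27 genes (0.135%), and 3 without APP-PS1 replicate 5, among 30 (0.15%). Without the 3 arrays that stand apart, 1 of 9 genes was called, Dsp, among 33 genes of the array (0.166%). Prox1 then gave -0.38 (adjusted p = 0.0734), Lct -0.52 (adjusted p = 0.199), Il16 -0.45 (adjusted p = 0.143) and Rfx3 -0.32 (adjusted p = 0.109), and the median of the 9 was again -0.32. Quantile normalization left 3 called (Dsp, Prox1 and Il16), among 50 genes of the array (0.251%), and a fit of these 10 arrays alone left 1 (Dsp), among 5 genes (0.0251%). With array medians set equal, Rfx3 gave -0.25 (adjusted p = 0.121) and the median of the 9 genes was -0.25, against 0.02 over all genes. Rfx3 also missed without the intensity trend (adjusted p = 0.0532) and with the oligodendrocyte covariate (adjusted p = 0.0636). In the fits without the 3 arrays, with quantile normalization, of these 10 arrays alone, with equal medians, without the trend and with the covariate, 8 of the 9 differences lay below 0. All 9 did without replicate 4 of the wild-type group on ibuprofen chow, but C1ql2 was then 0 after rounding (limma, adjusted p = 0.991).

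On control chow none of the 9 genes passed between the genotypes. Their differences ran from -0.08 to 0.17 with a median of 0.00, 4 lay below 0 (42.1% of all genes did), and adjusted p ran from 0.89 to 1. Over all genes 0.01% were called, and none of the 9 had an unadjusted p under 0.05, beside 5.87% of all genes. Dsp differed by -0.08 ± 0.20 (SE), with a 95% interval of -0.50 to 0.35, and Prox1 by -0.01 ± 0.08 (SE), with an interval of -0.18 to 0.15. The median was 0.02 and 0 of 9 passed without the 3 arrays that stand apart. The signs of these small values changed with the setting. With array medians set equal or with quantile normalization, 7 of the 9 lay below 0. With the oligodendrocyte covariate 8 did, all but C1ql2, and with array weights 3 did. In each of these settings 0 of 9 passed.

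**Figure D2:**
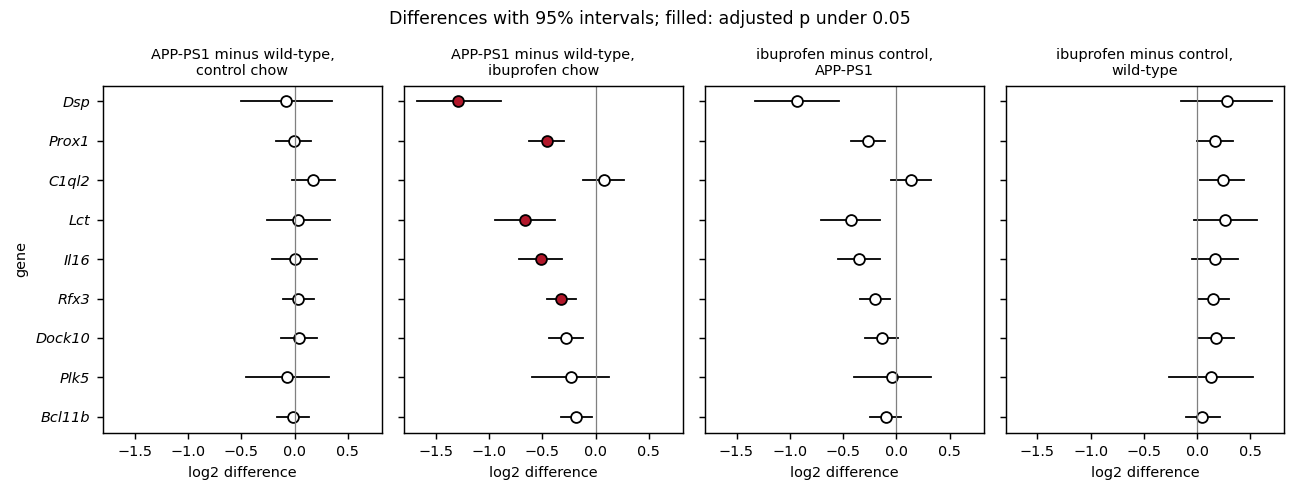
Log2 difference (x axis) of each granule cell gene (y axis) in 4 comparisons, with its 95% interval as a line. Filled points passed limma's test at an adjusted p under 0.05. Filled points appear for 5 genes, all in the comparison of genotypes on ibuprofen chow, with Dsp farthest from 0 at -1.29, and the comparison on control chow lies around 0.

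The next question was what ibuprofen does within each genotype. In APP-PS1 mice 8 of the 9 genes had differences below 0, beside 58.2% of all genes, with a median of -0.20, and 0 passed, with adjusted p from 0.527 to 0.952. No gene of the array passed by limma in this comparison (0%), beside 1292 at an unadjusted p under 0.05. At that unadjusted level 5 of the 9 were lower, beside 4.66% of all genes. Dsp gave -0.93 ± 0.19 (SE, adjusted p = 0.527), with 4 of 5 treated arrays below every control array, Lct -0.43 ± 0.13 (SE, adjusted p = 0.716), Il16 -0.35 ± 0.10 (SE, adjusted p = 0.716), Prox1 -0.27 ± 0.08 (SE, adjusted p = 0.716) and Rfx3 -0.20 ± 0.07 (SE, adjusted p = 0.716). C1ql2 gave 0.14 ± 0.09 (SE, adjusted p = 0.716). Without replicate 2 of the treated group Dsp passed, at -1.12 with adjusted p = 0.0177, and was 1 of 3 genes called. Without the 3 arrays that stand apart Dsp gave -0.99 ± 0.19 (SE, adjusted p = 0.265), the median was again -0.20 and 0 of 9 passed. This comparison and that of genotypes on ibuprofen chow share the APP-PS1 ibuprofen arrays, so they are not separate evidence.

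In wild-type mice all 9 differences for ibuprofen lay above 0, where 33.2% of all genes lay below it, with a median of 0.17 against 0.05 over all genes, and 0 passed, with adjusted p from 0.432 to 0.729. No gene of the array passed by limma (0%), beside 2198 at an unadjusted p under 0.05. At that level 4 of the 9 (Prox1, C1ql2, Rfx3 and Dock10) were higher, beside 9.08% of all genes. Dsp gave 0.28 ± 0.20 (SE), Lct 0.26 ± 0.14 (SE), C1ql2 0.24 ± 0.10 (SE) and Dock10 0.18 ± 0.08 (SE). For Rfx3 and Dock10 each of the 5 ibuprofen arrays lay above every control array, beside 1.94% of all genes. These values moved with the arrays that stand apart, both of which in this comparison are on ibuprofen chow. Without the 3 arrays the median was 0.10 and 7 of 9 lay above 0, with Plk5 and Bcl11b at -0.04. With array medians set equal the median was 0.10 and 8 of 9 lay above 0, with Bcl11b at -0.01.

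The interaction asks whether the effect of ibuprofen differs between the genotypes. All 9 estimates were below 0, beside 64.4% of all genes, with a median of -0.35 against -0.07 over all genes, but 0 of 9 passed and no gene of the array did by limma (0%), beside 4087 at an unadjusted p under 0.05. At that level 6 of 9 were lower, beside 16% of all genes. Dsp gave -1.21 ± 0.28 (SE), Lct -0.69 ± 0.20 (SE), Il16 -0.52 ± 0.14 (SE), Prox1 -0.44 ± 0.11 (SE) and Rfx3 -0.35 ± 0.10 (SE), each with adjusted p = 0.208. Without APP-PS1 ibuprofen chow replicate 2, Dsp and Prox1 passed, both with adjusted p = 0.0478, among 13 genes. The estimate of C1ql2 was -0.10 ± 0.14 (SE, adjusted p = 0.665) and turned to 0.07 without the 3 arrays that stand apart. In that fit the median of the 9 was again -0.35 and 0 passed, with Dsp at -1.24 ± 0.28 (SE), Lct at -0.54 ± 0.20 (SE), Il16 at -0.43 ± 0.15 (SE), Prox1 at -0.38 ± 0.12 (SE) and Rfx3 at -0.35 ± 0.10 (SE), each with adjusted p = 0.495. Averaged over the diets, the genotype difference was -0.68 ± 0.14 (SE, adjusted p = 0.129) for Dsp and -0.24 ± 0.06 (SE, adjusted p = 0.219) for Prox1, and 0 of 9 passed, beside 0.0251% of all genes. Without the 3 arrays it was -0.64 ± 0.14 (SE, adjusted p = 0.142) for Dsp and -0.20 ± 0.06 (SE, adjusted p = 0.268) for Prox1, and again 0 passed. Without APP-PS1 ibuprofen chow replicate 2, Dsp, Prox1 and Il16 passed in this average, among 52 genes, with adjusted p of 0.00875 for Dsp.

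Across the 19 arrays most of the genes varied together. Of 36 pairs, 24 had a Pearson correlation that passed a permutation test of 100000 resamples after adjustment over the 36 pairs, all of them positive, and 18 of these passed with Spearman's rho as well. The resampling ran over all arrays without regard to group, so a difference between groups that 2 genes share adds to their correlation. The share of pairs of other genes that would pass was not computed. Lct and Il16 were the closest pair (r = 0.97 and rho = 0.93, both p = 1e-05, the smallest these permutations can give, adjusted p = 4e-05 and 0.00012). They kept r = 0.94 on deviations from group means and r = 0.96 without the 2 arrays farthest from the median of Lct. Dsp and Prox1 gave r = 0.92 (p = 2e-05, adjusted p = 7.2e-05) and rho = 0.81 (p = 9e-05, adjusted p = 0.00045). Their r was 0.77 on deviations and 0.88 without the 2 arrays farthest from the median of Dsp. The 10 pairs among Dsp, Prox1, Lct, Il16 and Rfx3 ran from 0.85 to 0.97 over all arrays, from 0.62 to 0.94 on deviations from group means, and from 0.67 to 0.90 over the 14 arrays of the other 3 groups, a subset chosen after the values were seen. Without the 3 arrays that stand apart, also a choice made after the values were seen, they ran from 0.80 to 0.98, with 0.95 for Dsp and Prox1 and 0.98 for Lct and Il16.

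**Figure D3:**
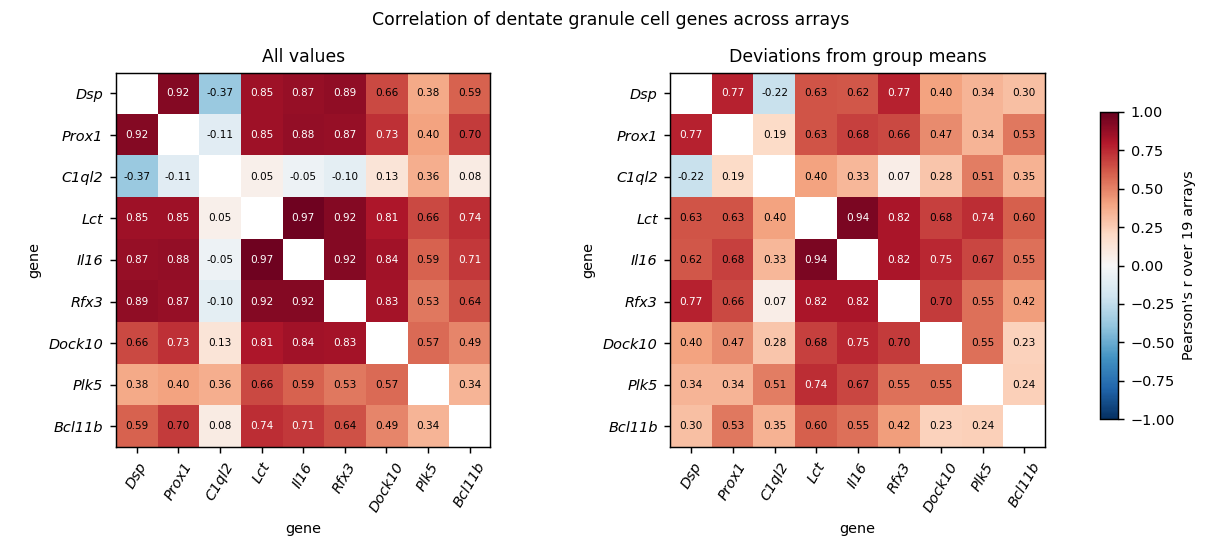
Pearson's r over 19 arrays (colour and printed value) for each pair of the 9 granule cell genes, over all values on the left and over deviations from the 4 group means on the right. The block of Dsp, Prox1, Lct, Il16 and Rfx3 is at 0.85 or above on the left, and the row of C1ql2 runs from -0.37 to 0.36.

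C1ql2 was in none of the 24 pairs, with r from -0.37 (Dsp) to 0.36 (Plk5) and, on deviations from group means, from -0.22 to 0.51. Its correlations without the 3 arrays that stand apart ran from -0.65 (Dsp) to 0.26 (Plk5). Over the 14 arrays outside the APP-PS1 ibuprofen chow group they ran from -0.08 (Dsp) to 0.56 (Dock10). The lowest apart from Dsp was then 0.24 (Rfx3). Over all 19 arrays the rho of C1ql2 with Plk5 was 0.58 (p = 0.01, adjusted p = 0.0225). The correlations of Plk5 with Lct, Il16, Rfx3 and Dock10 rest on few arrays. That with Lct was 0.66 (p = 0.00752, adjusted p = 0.0129), with rho = 0.29 (p = 0.23), and fell to -0.13 without the 2 arrays farthest from the median of Lct. For each further pair the 2 arrays were chosen anew, by distance from the median of the partner gene, or of Plk5 itself in the pair with Bcl11b. With Il16 the correlation of Plk5 was 0.59 and then 0.13, with Rfx3 0.53 and then 0.11, and with Dock10 0.57 and then 0.18. Each of these 4 relations thus rests on the 2 arrays left out of it. With Dsp the correlation was 0.38 and then 0.11. It went from 0.40 to 0.56 with Prox1, from 0.34 to 0.51 with Bcl11b and from 0.36 to 0.38 with C1ql2. As the arrays left out may differ between pairs, these changes are not compared with each other. The points share the normalization of the arrays and a mixed tissue, and the share of dentate gyrus in each sample was not measured.

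The genes whose profile over the 19 arrays was most like the mean profile of the 9 were Dgkh, a diacylglycerol kinase gene (r = 0.952), Susd1 (0.949), Sema5a, a semaphorin gene (0.948), Ccbe1 (0.942), Dcc, a netrin receptor gene (0.942), Zhx2 (0.937), B3galt5 (0.936), Ccdc85a (0.933), Frzb (0.931) and Tmem114 (0.930). Their differences between the genotypes on ibuprofen chow ran from -0.67 (Frzb, which encodes a secreted Wnt inhibitor) to -0.24 (Zhx2), a direction that the choice by profile fixes, so no test of it is given. The most opposite profiles were those of Necab1, a calcium-binding protein gene (-0.889), Tubb6 (-0.856), Cpa1 (-0.833), Kdf1 (-0.827) and Slc23a3 (-0.827). On deviations from group means 6 of the top 10 were again among the top 10, and without the 3 arrays that stand apart 5 were. These correlations are descriptions over shared arrays, and Sema5a was already on the list of other granule cell genes.

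That list held 13 further measured genes enriched in dentate granule cells. It too was chosen with earlier results of these data known, so its counts are no separate evidence. On ibuprofen chow all 13 were below 0 in APP-PS1 mice, with a median of -0.29, beside 62.2% of all genes below 0, and 1 was called. This was Tdo2, the tryptophan dioxygenase gene, with a wild-type mean of 7.98 ± 0.31 (SD, n = 5), an APP-PS1 mean of 6.52 ± 0.65 (SD, n = 5) and a difference of -1.46 ± 0.28 (SE, adjusted p = 0.0189). Its APP-PS1 values were 6.00, 7.57, 6.02, 6.68 and 6.34, so replicate 2 was again the highest. Calb1, the calbindin gene of mature granule cells, gave -0.29 ± 0.09 (SE, adjusted p = 0.13) and Sema5a -0.37 ± 0.10 (SE, adjusted p = 0.0946). C1ql3, a relative of C1ql2 also on the list, gave -0.11 ± 0.08 (SE, adjusted p = 0.35).

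The other hippocampal cell types were compared on the same diet. Of 9 genes of immature granule cells and progenitors 0 passed, with a median of 0.03. Dcx, the doublecortin gene, gave -0.06 ± 0.09 (SE) and Neurod1 -0.25 ± 0.09 (SE). None of 8 mossy cell genes passed (median -0.07), nor of 6 CA1 genes (median -0.13), 7 CA2 genes (median -0.17), 6 CA3 genes (median -0.03), 8 interneuron genes (median -0.16) or 7 genes of all neurons (median 0.06). All 6 CA1 genes lay below 0, with Wfs1 at -0.21 ± 0.12 (SE). So did 6 of 7 CA2 genes (lowest -0.31), 7 of 8 interneuron genes and 6 of 8 mossy cell genes, beside 62.2% of all genes. The counts were 4 of 6 for CA3, 4 of 9 for immature granule cells and 2 of 7 for all neurons. Among glial and other lists 0 genes passed either, with medians of 0.03 for 8 microglia genes, 0.00 for 7 astrocyte genes, -0.03 for 11 oligodendrocyte genes, 0.01 for 6 endothelial genes, -0.07 for 6 genes of ciliated cells, 0.05 for 5 thalamus and habenula genes and -0.05 for 8 genes of neocortex and subiculum. Whether the granule cell lists differ from these lists was not tested.

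**Figure D4:**
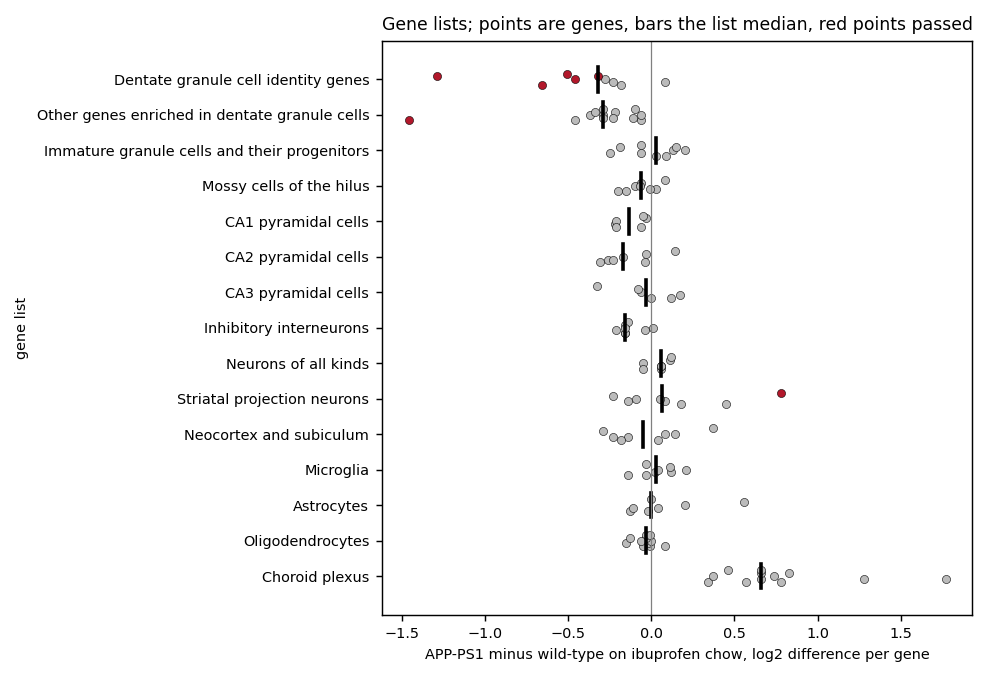
Log2 difference between APP-PS1 and wild-type mice on ibuprofen chow (x axis) for each gene of 15 lists (y axis). Points are genes, red where limma's adjusted p was under 0.05, and bars are list medians. The medians are -0.32 and -0.29 for the granule cell lists, between -0.17 and 0.06 for the other neuron lists, and 0.66 for choroid plexus, where 0 genes passed.

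Lists for choroid plexus and for striatal projection neurons were compared on the same diet as well. Choroid plexus genes had 12 of 12 differences above 0 on ibuprofen chow (median 0.66) and 0 called, with list means per array of 10.24, 8.17, 9.24, 8.23 and 10.30 in APP-PS1 and from 7.76 to 10.41 in wild-type mice. Ttr, the transthyretin gene, gave 1.28 ± 0.76 (SE, adjusted p = 0.276). Dsp in the same APP-PS1 arrays, also in order of replicate number, was 8.35, 9.31, 8.35, 8.46 and 8.45. Replicate 2 was thus lowest in the choroid plexus list and highest in Dsp, while replicate 4 was low in both. The other groups did not share 1 order. Replicate 5 of wild-type mice on ibuprofen chow was highest of its group in both (10.41 and 10.40). So was replicate 4 of APP-PS1 mice on control chow (10.56 and 9.83). Replicate 1 of wild-type mice on control chow was highest of its group in the list (9.56) and lowest in Dsp (9.37). With the choroid plexus mean as a covariate the same 5 granule cell genes were called, among 62 genes of the array (0.311%). Of 8 measured genes of striatal projection neurons 1 was called higher, Penk, the proenkephalin gene, at 12.13, 11.77, 12.57, 11.78 and 12.54 in APP-PS1 mice and 0.78 ± 0.13 (SE, adjusted p = 0.0128) above wild-type, without overlap. Drd1, a dopamine receptor gene, gave 0.45 ± 0.12 (SE, adjusted p = 0.0874). Of the 8 striatal genes 3 lay below 0 and 5 above. The median of the list was 0.06, and its array means ran from 9.34 to 9.57 in APP-PS1 and from 9.20 to 9.54 in wild-type mice. The part of choroid plexus tissue and of the striatal genes in the granule cell result was not tested.

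Relatives and partners of the 9 genes were also counted on ibuprofen chow. Of 9 other desmosome genes 0 passed, with a median of 0.04. Jup, plakoglobin, a partner of desmoplakin, gave -0.03 ± 0.10 (SE) and Pkp2, plakophilin 2, gave -0.32 ± 0.08 (SE, adjusted p = 0.0851). Of 7 C1q-like relatives and synaptic partners of C1ql2 0 passed (median -0.11), with Nrxn3, a neurexin gene, at -0.12 ± 0.05 (SE) and Grik4, a kainate receptor subunit gene, at -0.06 ± 0.07 (SE). Among 8 relatives of the transcription factors (median -0.05) 0 passed, with Bcl11a at -0.10 ± 0.04 (SE) and Rfx1 at -0.26 ± 0.08 (SE). Among 9 relatives of Dock10, Plk5 and Il16 (median -0.09) 0 passed, with Cdc42, a GTPase that Dock10 activates, at 0.14 ± 0.08 (SE) and Plk2 at 0.05 ± 0.05 (SE).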

How the data were processed

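RNA was measured on Affymetrix arrays of 19 hippocampus samples. The deposited file holds a log2 value per probe set and array. Per the submitters' processing notes, the authors used RMA and Partek 6.5. Their settings and the genome build are not given in the sources used here. The annotation of this array gave 1 symbol to 21789 of 35556 probe sets, several to 1621 and none here to 12146. The probe set with the highest mean stood for each gene. Of the resulting 19938 genes, 999 had more than 1 probe set. No further normalization or filter was applied.

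One limma fit (limma 3.58.1, R 4.3.3, the data.table package, version 1.17.8) held 4 group means, left 15 residual degrees of freedom and used an intensity trend. Tests were two-sided, adjusted by Benjamini and Hochberg over all genes, at 0.05, and the code was tested on simulated data. Errors are SE for differences and SD for means. Arrays' number limits the precision. Figures and permutations used Python 3.11.15, numpy 2.4.6, pandas 2.3.3 and matplotlib 3.10.9.

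The members and the 22 other gene lists were chosen with earlier results of these data known. Genes named are the members, App, Prnp, Tdo2, Calb1, Penk and Ttr, list genes past the threshold, up to 4 of each list with the highest mean, and the 10 most and 5 least alike. Alternatives were quantile normalization, equal medians, a filter on dim genes, mean probe sets, no trend, array weights, the compared groups alone, a replicate block, choroid plexus and oligodendrocyte covariates, and leaving out arrays.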

Additional observations from a re-analysis of the deposited data

Results flagged for a closer look

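In groups of 4 or 5 arrays, 4 values stood far from the rest of their group by Dixon's test, out of 60 groups of arrays tested over 15 genes. Chance gives such a value in about 1 group in 20. Dsp in APP-PS1 ibuprofen chow replicate 2 was 9.31, beside 8.35 to 8.46 in the other 4 arrays of the group. Plk5 in APP-PS1 control chow replicate 1, an array that stands apart, was 8.69, beside 9.25 to 9.31. Plk5 in APP-PS1 ibuprofen chow replicate 3 was 8.24, beside 9.24 to 9.51. App in wild-type control chow replicate 4 was 13.16, beside 13.21 to 13.22.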

How the results depend on the processing

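The number of arrays limits every count here. The members' median differences kept their value within the spread between arrays (0.12) under all alternatives. For genotype on ibuprofen chow the members called numbered 3 with quantile normalization, 1 without the 3 arrays that stand apart and 1 with the compared groups alone, 6 with array weights, Dock10 included (adjusted p = 0.0303), and 1 to 6 over the leave-outs. Genes called there, 54 in the report, were 128 without the dimmest genes, 1004 with array weights, 33 without the 3 arrays, 5 with the compared groups alone, and 10 to 1490 over the leave-outs. Replicate numbers were not taken to pair the arrays. Over 27 same-numbered pairs deviations from group means correlated from -0.27 to 0.60 (median 0.13), with 16 over 0.1. Replicate 4 of wild-type control chow gave 0.60 with replicate 4 of both ibuprofen groups, and those 2 gave 0.57 with each other. Differently numbered pairs were not compared, so these values do not settle whether replicate number marks a batch. Every pair was over 0.1 only between wild-type ibuprofen and APP-PS1 control chow (0.25 to 0.41) and between wild-type control and APP-PS1 ibuprofen chow (0.12 to 0.60), which are not compared here. With the replicate block 197 genes were called for genotype on ibuprofen chow and 4 on control chow, and the block changed no call of a member. With array weights, genes and members called were 8 and 0 on control chow, 108 and 2 for ibuprofen in APP-PS1, 2 and 0 in wild-type, 174 and 3 for the interaction, and 342 and 3 for the genotype average. That average gave 8 genes with quantile normalization, equal medians or without the 3 arrays, and 3 with the oligodendrocyte covariate. Over the leave-outs the genes called ran from 2 to 4 on control chow, 0 to 3 for ibuprofen in APP-PS1, 0 to 13 for the interaction and 3 to 52 for the average, and members from 0 to 1, 0 to 2 and 0 to 3 in the last 3. The median correlation of the 36 pairs, 0.66, was 0.55 on deviations from group means and 0.55 without the APP-PS1 ibuprofen chow group, the latter chosen after seeing the data, as was leaving out the 3 arrays (0.64).

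Signs changed only for values that had not passed. Listed here are changes that remain after rounding to 2 decimals, so values at 0.00 are left out. Il16, at 0.00 on control chow in the report, was thus not counted, although it reached -0.11 among the alternatives. On control chow Prox1 gave 0.02 and Plk5 0.01 with array weights, Lct -0.01 with the replicate block, Lct -0.11 and Dock10 -0.10 with the oligodendrocyte covariate, and Plk5 0.05 without the 3 arrays. For ibuprofen in APP-PS1 Plk5 gave 0.04 with the oligodendrocyte covariate. In wild-type Bcl11b gave -0.01 with equal medians, -0.03 with array weights and -0.04 without the 3 arrays, where Plk5 gave -0.04. For the interaction C1ql2 gave 0.04 with array weights and 0.07 without the 3 arrays, and Plk5 0.03 with the oligodendrocyte covariate. Over the leave-outs on control chow Dsp ran from -0.15 to 0.07, Prox1 from -0.05 to 0.02, Lct from -0.02 to 0.09, Plk5 from -0.11 to 0.05 and Bcl11b from -0.07 to 0.01, and Plk5 from -0.15 to 0.19 for ibuprofen in APP-PS1 and from -0.28 to 0.06 for the interaction. The cause of these changes was not tested.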
